A study of Rattus norvegicus with 48 samples.

Results

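Basement membranes of the rat lung were followed through 10 genes: the laminin alpha chains Lama2, Lama4 and Lama5, the beta chains Lamb1 and Lamb2, the gamma chain Lamc1, the nidogens Nid1 and Nid2, the proteoglycan perlecan (Hspg2) and the matricellular protein Sparc. They were taken by name, and all 10 have a row among the 30045 genes counted, 9 under their symbol and Hspg2 under the symbol LOC313641, which carries its RefSeq gene ID. The libraries came from lung pieces of 48 male Sprague-Dawley rats that breathed oil vapor at 300 ppm or filtered air in a whole-body chamber, for 6 h. The repeated schedule had 16 exposure days, on 4 days per week for 4 weeks, and the single schedule had 1. Lungs were taken 28 days or 1 day after the last exposure, which gave 8 groups of 6 animals: repeated oil vapor and repeated air at 28 days, repeated oil vapor and repeated air at 1 day, single oil vapor and single air at 28 days, and single oil vapor and single air at 1 day. The lung pieces were not sorted into cell types, and the labels give neither the animals' age nor the composition of the oil vapor.

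A basement membrane is the thin sheet of matrix on which epithelium and endothelium rest and which wraps muscle, fat and nerve cells. Each laminin is a trimer of an alpha, a beta and a gamma chain, and these trimers polymerise into a network that cells hold through integrins and dystroglycan. A separate network of type IV collagen lies beside it, nidogens and perlecan tie the networks together, and Sparc binds type IV collagen and other collagens. In the alveolus the epithelial and capillary basement membranes are fused over much of the gas exchange surface, so the sheet is part of the barrier that gas crosses.

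Promoter sequences are shown for 3 members that changed with time in both treatments of the single schedule and whose window before the start lies outside the annotated gene. Each is the 250 bases before the transcription start in RefSeq's annotation of GRCr8, on the gene's strand from 5′ to 3′. The capitals mark the GC box GGGCGG or its complement, the TATA box TATAAA and the box CCAAT, which were searched on both strands. None of these 3 windows holds more than 1 kind of motif, and the first 2 GC boxes of Lamc1 overlap by 1 base.
Lamc1, chr13:68051987-68052236, minus strand: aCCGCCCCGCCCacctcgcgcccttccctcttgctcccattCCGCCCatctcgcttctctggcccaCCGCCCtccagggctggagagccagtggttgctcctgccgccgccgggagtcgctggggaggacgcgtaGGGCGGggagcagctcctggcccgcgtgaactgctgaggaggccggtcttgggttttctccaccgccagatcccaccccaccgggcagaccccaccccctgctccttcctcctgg
Sparc, chr10:40038817-40039066, minus strand: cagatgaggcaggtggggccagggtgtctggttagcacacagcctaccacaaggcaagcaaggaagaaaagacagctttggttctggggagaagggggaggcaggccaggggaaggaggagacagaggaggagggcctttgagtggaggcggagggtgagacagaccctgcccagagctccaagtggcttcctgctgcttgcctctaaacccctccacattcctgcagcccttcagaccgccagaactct
Lama4, chr20:43946648-43946897, plus strand: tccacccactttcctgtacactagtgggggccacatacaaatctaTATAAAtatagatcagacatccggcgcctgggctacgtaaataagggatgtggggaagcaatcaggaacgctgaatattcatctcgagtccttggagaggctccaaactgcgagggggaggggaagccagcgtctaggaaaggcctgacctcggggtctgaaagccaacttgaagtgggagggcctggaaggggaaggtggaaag
The Lamc1 window held 5 GC boxes, the Sparc window none of the 3 motifs, and the Lama4 window 1 TATA box. Of the 8 members with an entry in the RefSeq table, 6 held a GC box, against 30.5% of 33469 windows of that length, 1 held a TATA box, against 12.9%, and 2 held CCAAT, against 34%. The windows of Lama2, Hspg2, Lamb1 and Nid1 do not lie wholly outside the annotated gene, and each held a GC box. Of the windows outside it, those of Lamc1 and Lama5 held a GC box and those of Sparc and Lama4 did not. The GC content of these 8 windows ran between 53.2% for Lama4 and 72.8% for Lama5. A match describes letters in the window and not a site in use.

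Each library held between 1537183 and 7157844 counts, with a mean of 5180159 ± 1017177 (SD, n = 48), and levels are given as CPM, counts per 1000000 counts of a library. A count of 3 corresponded to 0.419 to 1.95 CPM, far below the lowest value of any member, 14.3 CPM for Nid2. The tissue label fitted the markers: Sftpc, a surfactant gene of the alveolar epithelium, lay between 2084 and 7742 CPM. Animal 43, of the repeated oil vapor group at 1 day, stood apart, with the smallest library and 42872 CPM of erythroid transcripts against a median of 3264 CPM in its group. It was the lowest of its group in all 10 members, so values for that group are also given without it. No transcript lengths were used here, so levels are compared between groups for each gene and not between genes. In whole tissue, fewer cells of a type and less RNA per cell cannot be told apart.

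The most members changed with time after exposure in the single schedule. At 28 days, 7 of 10 members were lower than at 1 day in rats that had breathed oil vapor, and 8 of 10 in rats that had breathed air, by a quasi-likelihood fit in edgeR with a threshold of 0.05 on the p-value adjusted over all genes tested. Of all 14820 genes tested, 9.43% passed in oil vapor and 3.25% in air, and 4.98% in oil vapor and 2.24% in air passed as lower. The median log2 fold change of the members was -0.29 in oil vapor and -0.38 in air, against 0.00 over all genes in both treatments. Nid1 and Sparc had the largest fold changes in both treatments, and those of Lamb2 were the closest to 0. Neither schedule separates days after exposure from the animals' age or from the day of tissue collection, and these cannot be told apart.

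**Figure D1:**
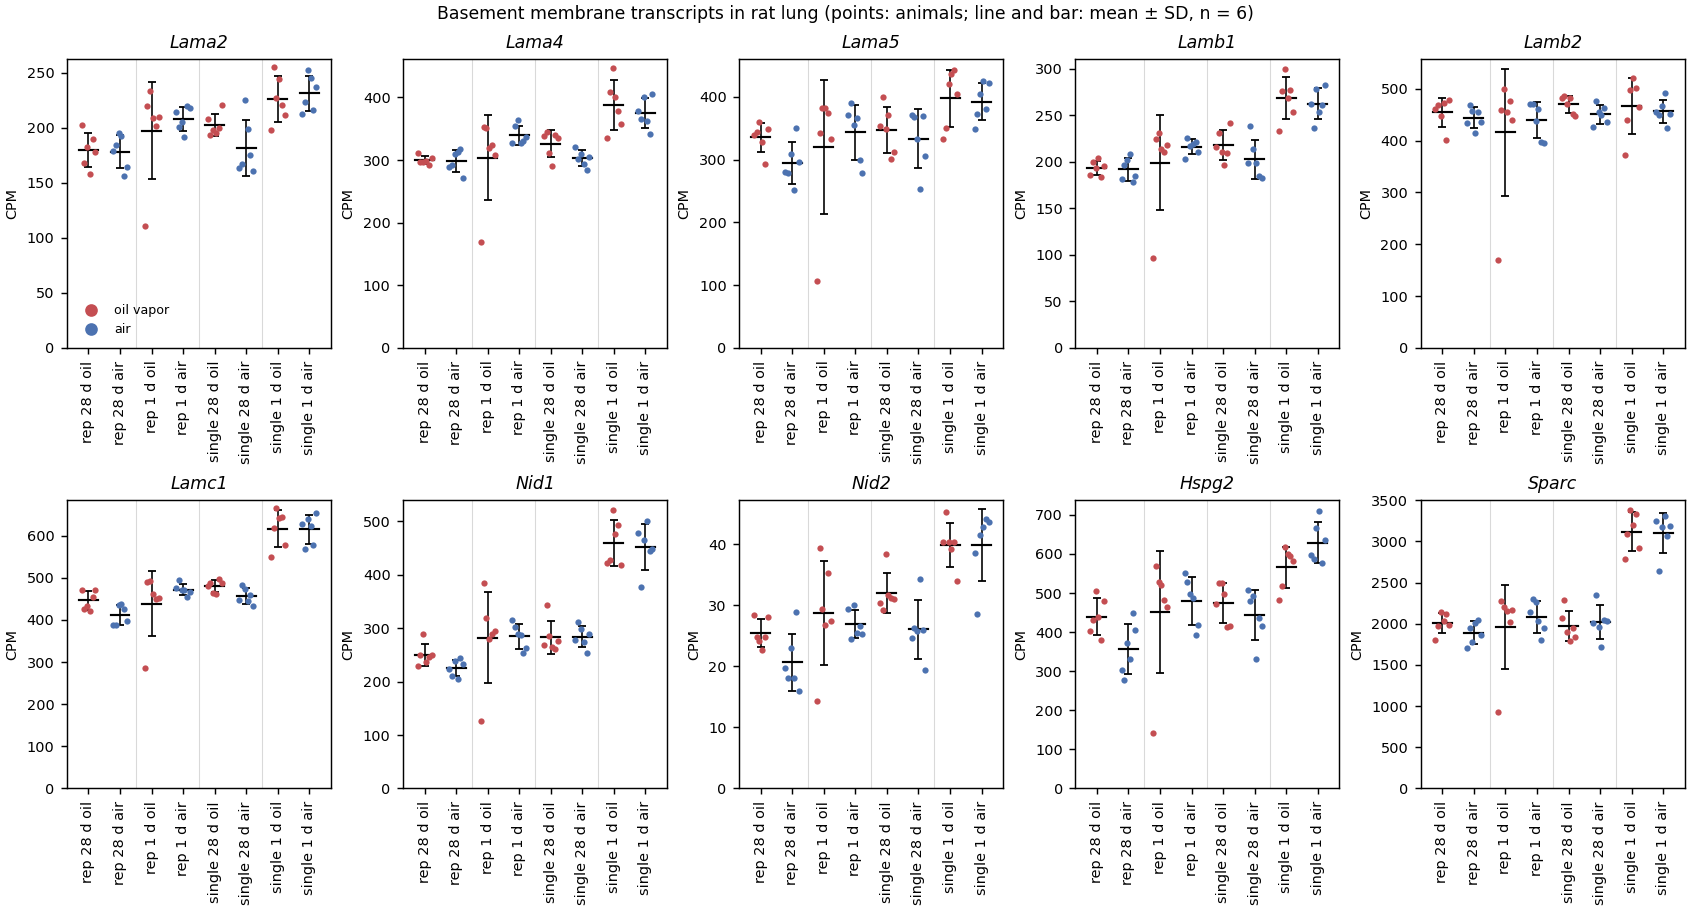
Level of each member in every animal, in CPM on axes from 0, for the 8 groups of 6 rats; points are animals, the horizontal line is the mean and the bar the SD. For Lamc1 and Sparc all 12 animals of the single schedule at 1 day lie above the other 36, and the low point in each repeated oil vapor group at 1 day is animal 43.

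Among the alpha chains, Lama4, which is found in laminins of endothelium, fat and other mesenchymal cells, was lower at 28 days in both treatments. In oil vapor its levels were 290 to 345 CPM at 28 days (median 336) and 336 to 447 CPM at 1 day (median 390). In air they were 284 to 321 CPM at 28 days (median 304) and 342 to 405 CPM at 1 day (median 372), and these air groups did not overlap. The log2 fold change was -0.26 ± 0.06 in oil vapor (SE, adjusted p = 0.00581, edgeR) and -0.29 ± 0.06 in air (adjusted p = 0.00516). Lama2, the chain of laminins around muscle and nerve cells, gave -0.17 ± 0.07 in oil vapor, which did not pass (adjusted p = 0.129, edgeR). In air it changed by -0.33 ± 0.07 (adjusted p = 0.00866). In air its levels were 160 to 225 CPM at 28 days (median 171) and 212 to 252 CPM at 1 day (median 231), and 1 animal at 28 days lay within the 1-day range. Lama5, the main alpha chain of laminins under adult epithelium, gave -0.21 ± 0.08 in oil vapor (adjusted p = 0.127) and -0.22 ± 0.08 in air (adjusted p = 0.188), and neither passed.

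The beta chains parted from each other. Lamb1 was lower at 28 days, by -0.31 ± 0.06 in oil vapor (adjusted p = 0.00185, edgeR) and -0.35 ± 0.06 in air (adjusted p = 0.00141). Its levels in oil vapor were 197 to 242 CPM at 28 days (median 213) and 233 to 300.2 CPM at 1 day (median 273). In air they were 183 to 238 CPM at 28 days (median 199) and 237 to 283 CPM at 1 day (median 262). In each treatment 1 animal at 28 days lay within the 1-day range. Lamb2, which replaces Lamb1 in many mature basement membranes such as those of the glomerulus and the neuromuscular junction, differed by -0.00 ± 0.05 in oil vapor and 0.00 ± 0.05 in air. With erythroid, cardiac and liver scores as covariates the Lamb2 difference was -0.13 in oil vapor (adjusted p = 0.331, edgeR) and 0.03 in air. The interval of the air difference without them, 1.96 standard errors to each side, was -0.11 to 0.11. Its levels in oil vapor were 447 to 486 CPM at 28 days (median 476) and 372 to 522 CPM at 1 day (median 482). In air they were 426 to 477 CPM at 28 days (median 453) and 424 to 492 CPM at 1 day (median 453). Over all 8 groups the highest mean of Lamb2 was 1.13 times the lowest, the smallest spread of any member. Without animal 43, whose group held that lowest mean, it was 1.07 times and still the smallest. The largest was 2.04 times, for Nid1, with or without that animal.

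Because both beta chains were counted in the same library, their ratio does not depend on how libraries are scaled. The Lamb2 to Lamb1 count ratio had a geometric mean of 2.16 at 28 days and 1.73 at 1 day in single oil vapor groups, and of 2.23 at 28 days and 1.74 at 1 day in single air groups. The difference in mean log2 ratio was 0.32 in oil vapor (exact permutation p = 0.00433, two-sided, n = 6 each) and 0.36 in air (exact permutation p = 0.00216, the smallest that 6 against 6 allows). Both had an adjusted permutation p of 0.0346 over the 24 ratio comparisons made. In the repeated schedule the ratio was 2.35 at 28 days and 2.06 at 1 day in oil vapor, a difference of 0.19 (exact permutation p = 0.00433, adjusted 0.0346). In repeated air it was 2.32 at 28 days and 2.03 at 1 day, also a difference of 0.19, which did not pass after adjustment (exact permutation p = 0.0325, adjusted 0.130). The call in oil vapor was lost in either schedule for 10 of the 12 animals left out singly, with adjusted permutation p-values up to 0.0693 in the single and 0.0649 in the repeated schedule. Such a test has fewer splits than 6 against 6, so its p-values are coarser. A lost call therefore need not mean a smaller difference. A ratio within a library shows that the chains changed unequally and not that either held constant.

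**Figure D2:**
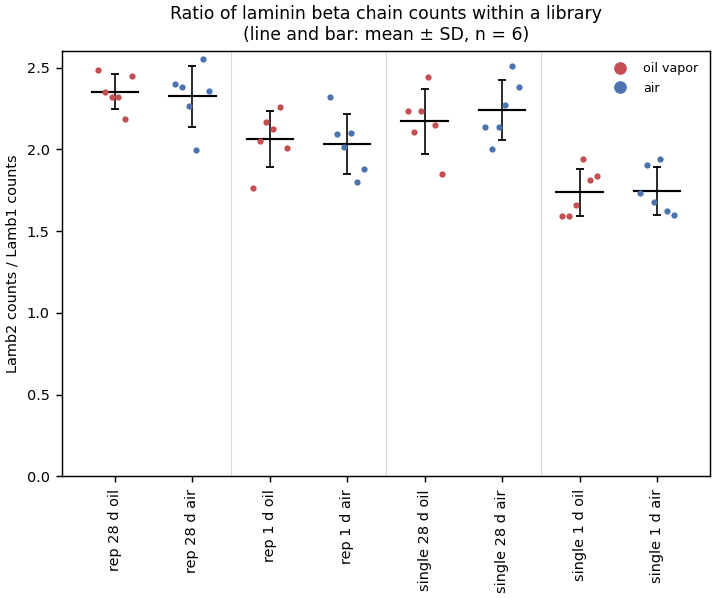
Counts of Lamb2 divided by counts of Lamb1 in each library, on an axis from 0, for the 8 groups of 6 rats; points are animals, the line is the arithmetic mean and the bar the SD. In the single schedule the 28-day air animals (2.003 to 2.51) lie above the 1-day air animals (1.60 to 1.94).

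Lamc1, the gamma chain shared by most laminin trimers, was lower at 28 days than at 1 day in every pair of animals within a treatment. In oil vapor its levels were 462 to 497 CPM at 28 days (median 484) and 550.2 to 667 CPM at 1 day (median 630.4). In air they were 433 to 484 CPM at 28 days (median 454) and 568 to 655 CPM at 1 day (median 625). The groups did not overlap in either treatment. The log2 fold change was -0.37 ± 0.04 in oil vapor (adjusted p = 6.8e-06, edgeR) and -0.41 ± 0.04 in air (adjusted p = 4.4e-06), so that the 28-day level was 0.772 of the 1-day level in oil vapor and 0.753 of it in air.

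The nidogens link laminin to type IV collagen, Nid1 by binding the laminin gamma 1 chain. Nid1 had 261 to 343 CPM at 28 days (median 272) and 418 to 521 CPM at 1 day (median 452) in oil vapor. In air it had 254 to 312 CPM at 28 days (median 283) and 377 to 501 CPM at 1 day (median 456). No animal at 28 days reached the lowest animal at 1 day in either treatment. Its log2 fold change was -0.71 ± 0.07 in oil vapor (adjusted p = 1.4e-06, edgeR) and -0.65 ± 0.08 in air (adjusted p = 8.8e-06). Nid2, a paralog with overlapping roles, had 29.3 to 38.5 CPM at 28 days (median 31.1) and 34.1 to 45.4 CPM at 1 day (median 40.4) in oil vapor. In air it had 19.4 to 34.4 CPM at 28 days (median 25.9) and 28.6 to 44.2 CPM at 1 day (median 42.2). The ranges overlapped in both treatments. It changed by -0.33 ± 0.10 in oil vapor (adjusted p = 0.0436, edgeR) and -0.59 ± 0.11 in air (adjusted p = 0.00169). The oil vapor call was lost in 10 of the 12 fits that left out 1 animal, with an adjusted p of up to 0.0970 (edgeR). The Nid2 to Nid1 count ratio differed between 28 days and 1 day by 0.38 on the log2 scale in single oil vapor groups, which did not pass (exact permutation p = 0.0108, adjusted 0.0649).

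Hspg2 encodes perlecan, a heparan sulfate proteoglycan of basement membranes. In oil vapor its levels were 413 to 527 CPM at 28 days (median 485) and 483 to 617 CPM at 1 day (median 588). In air they were 332 to 508 CPM at 28 days (median 459) and 577 to 710.5 CPM at 1 day (median 617). The groups overlapped in oil vapor and not in air. The log2 fold change was -0.27 ± 0.08 in oil vapor (adjusted p = 0.0465, edgeR) and -0.48 ± 0.08 in air (adjusted p = 0.00128). The oil vapor call was lost in 8 of the 12 fits that left out 1 animal, with an adjusted p of up to 0.114 (edgeR). Sparc had 1787 to 2285 CPM at 28 days (median 1922) and 2786 to 3383 CPM at 1 day (median 3144) in oil vapor. In air it had 1711 to 2354 CPM at 28 days (median 2020.2) and 2637 to 3309 CPM at 1 day (median 3181). Its groups did not overlap in either treatment, and it changed by -0.67 ± 0.07 in oil vapor (adjusted p = 1.4e-06, edgeR) and by -0.60 ± 0.07 in air (adjusted p = 1.2e-05).

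In all, the 28-day animals lay below every 1-day animal for Lamc1, Nid1 and Sparc in single oil vapor groups, as 2.12% of all genes did. In single air groups this held for Lama4, Lamc1, Nid1, Hspg2 and Sparc, as for 1.90% of all genes. The difference between the change in oil vapor and that in air was itself tested, and 0 of 10 members passed, as 0.00% of all genes, by edgeR and by DESeq2, with 0 members at an unadjusted p below 0.05, against 7.83% of all genes. The call for Lama2 in air and not in oil vapor is therefore not shown to differ between the treatments.

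**Figure D3:**
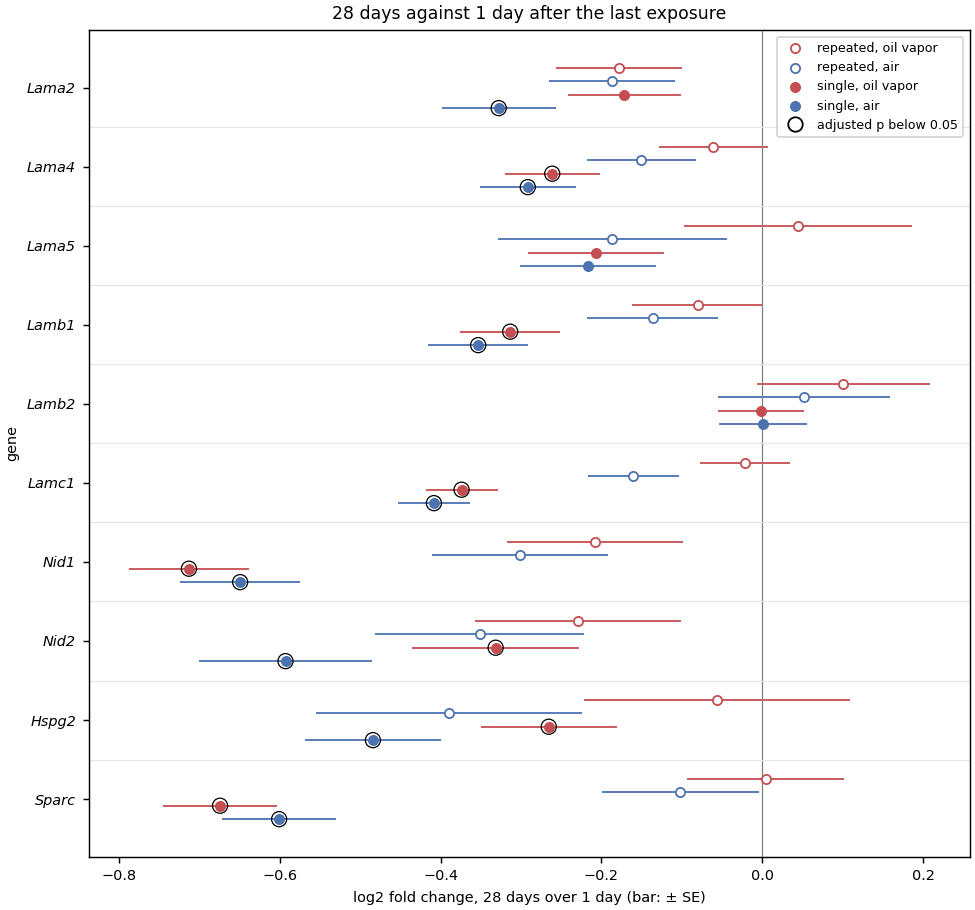
Log2 fold change at 28 days over 1 day for each member, with its standard error as the bar, for repeated oil vapor, repeated air, single oil vapor and single air; a black ring marks an adjusted p below 0.05. Rings appear only on single-schedule points, 7 in oil vapor and 8 in air, and Lamb2 lies close to 0 there.

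After the repeated schedule no member passed the same contrast, either in oil vapor, where 0.340% of 15005 genes passed, or in air, where 0.327% did. DESeq2 also called 0 of 10 in both, and limma-voom with sample weights called 2 in air. Fold changes at 28 days over 1 day ran between -0.23 (Nid2) and 0.10 (Lamb2) in oil vapor and between -0.39 (Hspg2) and 0.05 (Lamb2) in air. At an unadjusted p below 0.05 there were 1 member in oil vapor, where 15.0% of all genes lay below it, and 6 in air, against 10.7%, all lower. In repeated air, Nid1 had 204 to 243 CPM at 28 days (median 228) and 253 to 316 CPM at 1 day (median 288). Lamc1 had 387 to 438 CPM at 28 days (median 412) and 456 to 496 CPM at 1 day (median 470.1). Neither gene's groups overlapped, which was also true of Lama4 and of 1.11% of all genes as lower, yet none of these 3 passed. The log2 fold change was -0.30 ± 0.11 for Nid1 (adjusted p = 0.302, edgeR) and -0.16 ± 0.06 for Lamc1 (adjusted p = 0.283). All 24 libraries of a schedule share 1 estimate of the spread. Animal 43 therefore also enters the standard errors of the repeated contrasts that do not hold its group, in air and at 28 days. In air they were 0.11 for Nid1 and 0.17 for Hspg2 in the repeated schedule, against 0.08 for each in the single one. The oil vapor fold changes themselves rested in part on animal 43. Without it all 10 fold changes in repeated oil vapor were negative, between -0.31 for Nid1 and -0.02 for Lamb2, with Hspg2 at -0.21 in place of -0.06 and Nid2 at -0.29. Nid1 then passed (adjusted p = 0.0473, edgeR) and no other member did, and 156 genes passed in place of 51.

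The schedules were compared directly by testing whether the 28-day over 1-day change, averaged over oil vapor and air, was the same in both, in a fit of all 48 libraries. In this contrast 3 of 10 members passed, all higher in the repeated than in the single schedule, and 4.55% of 15322 genes passed, 2.51% as higher. The difference in log2 fold change was 0.59 ± 0.09 for Sparc (adjusted p = 4.9e-05, edgeR), 0.42 ± 0.09 for Nid1 (adjusted p = 0.00568) and 0.30 ± 0.05 for Lamc1 (adjusted p = 0.000205). The other 7 were also positive, between 0.06 for Lama2 and 0.22 for Lamb1 (adjusted p = 0.0641), and did not pass. Without animal 43 these 3 passed and so did Lamb1, at 0.18 (adjusted p = 0.0373, edgeR). Over all genes 968 then passed in place of 697. A constant shift between the schedules' count tables cancels in this contrast. A shift that differs between the times does not cancel, and it was not tested.

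Levels showed where that difference lay, though a shift between the schedules' count tables does not cancel in them. For Lamc1 the 12 single-schedule animals at 1 day had 550.2 to 667 CPM, and the other 36 animals had 286 to 497 CPM. For Sparc they had 2637 to 3383 CPM, and the other 36 had 930 to 2354 CPM. For Nid1 the 12 had 377 to 521 CPM, and 1 of the other 36 crossed into that range, at 384 CPM, in the repeated oil vapor group at 1 day. For these 3 genes both single 1-day groups stood at the top of the order of group means, each next to the other and overlapping. Below them the remaining groups overlapped their neighbours in that order. For Lama2, Lama4, Lama5, Lamb1, Nid2 and Hspg2 the same pair of groups also held the top, but overlapped the next group. For Lamb2 the highest mean was in single oil vapor at 28 days, 469.9 ± 16.9 CPM (SD, n = 6), and every neighbour overlapped.

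Set against each other in air at 1 day, 5 of 10 members were lower in the repeated than in the single schedule, where 3.76% of 15322 genes passed, 2.61% as lower. These were Nid1 at -0.68 ± 0.09 (adjusted p = 1e-05, edgeR), Sparc at -0.59 ± 0.09 (adjusted p = 1.8e-05), Nid2 at -0.59 ± 0.12 (adjusted p = 0.00158), Lamc1 at -0.40 ± 0.05 (adjusted p = 8.9e-07) and Lamb1 at -0.30 ± 0.07 (adjusted p = 0.0103). Hspg2 gave -0.41 ± 0.13 and did not pass (adjusted p = 0.0728, edgeR). In air at 28 days 0 of 10 members passed, as 0.0457% of genes did, and the fold changes ran between -0.35 (Nid2) and -0.02 (Lama4). DESeq2 and limma-voom also called 0 members there, and 4 had an unadjusted p below 0.05, against 8.67% of all genes. These contrasts share their single air animals at 1 day with the time contrast above, so they are not independent of it. Schedule, count table, cohort and the length of stay in the chamber cannot be told apart here. Nor can any difference in the animals' age or in the sequencing run, which the labels do not give.

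Oil vapor itself moved none of the 10 genes past the threshold. At 28 days, 0 members passed after repeated exposure, where 0.00% of genes passed, and 0 after the single exposure, also 0.00%. At 1 day, 0 passed after repeated exposure, where 0.00666% of genes did, and 0 after the single exposure, at 0.00%. Averaged over all 4 settings, 0 of 10 passed, against 0.0392% of 15322 genes, 6 in number. DESeq2 and limma-voom also called 0 members in each. At an unadjusted p below 0.05 there was 1 member, Nid2, in the average and in each 28-day setting, and 0 at 1 day. The share of all genes below it was 6.37% in the average, 4.86% at 28 days and 9.29% at 1 day in the repeated schedule, and 8.21% at 28 days and 10.1% at 1 day in the single schedule. In each of the 4 settings the oil vapor and air groups of all 10 members overlapped, whereas 0.900% of all genes at 28 days and 0.786% at 1 day in the repeated schedule, and 0.870% at 28 days and 0.580% at 1 day in the single schedule, had groups that did not. The difference of the oil vapor effect between times passed for 0 of 10 members in the repeated schedule, where 0.00666% of genes did, and for 0 in the single schedule, with 0 by DESeq2 and limma-voom in either. The repeated schedule also had 0 members at an unadjusted p below 0.05, against 7.80% of all genes.

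In the average over settings the fold changes other than that of Nid2 lay between -0.00 (Sparc) and 0.04, and the members' median was 0.02, against 0.01 over all genes. The lowest and highest bounds of any member, 1.96 standard errors away, were -0.09 and 0.30. Nid2 was highest, at 0.19 ± 0.06 (adjusted p = 0.418, edgeR). Without animal 43 all 10 averages were positive, between 0.02 for Sparc and 0.20 for Nid2 (adjusted p = 0.108), and 0 members and 52 genes passed. At 1 day after repeated exposure the members ran between -0.10 (Lama4) and 0.18 (Nid2) with it, 8 of them negative, and between -0.04 (Lama4) and 0.23 (Nid2) without it, 2 of them negative, when 0 members and 32 genes passed. It had 22.7 to 28.4 CPM in oil vapor (median 24.8) and 16.1 to 28.9 CPM in air (median 18.97) at 28 days after repeated exposure, a fold change of 0.30 ± 0.13 (adjusted p = 0.980). At 28 days after the single exposure it had 29.3 to 38.5 CPM in oil vapor (median 31.1) and 19.4 to 34.4 CPM in air (median 25.9), a fold change of 0.27 ± 0.11 (adjusted p = 0.519). The groups overlapped in both. Hspg2 had 381 to 506 CPM in oil vapor (median 435) and 279 to 448 CPM in air (median 352) at 28 days after repeated exposure, at 0.29 ± 0.17 (adjusted p = 0.980, edgeR). It had -0.15 ± 0.08 at 1 day after the single exposure (adjusted p = 0.589).

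**Figure D4:**
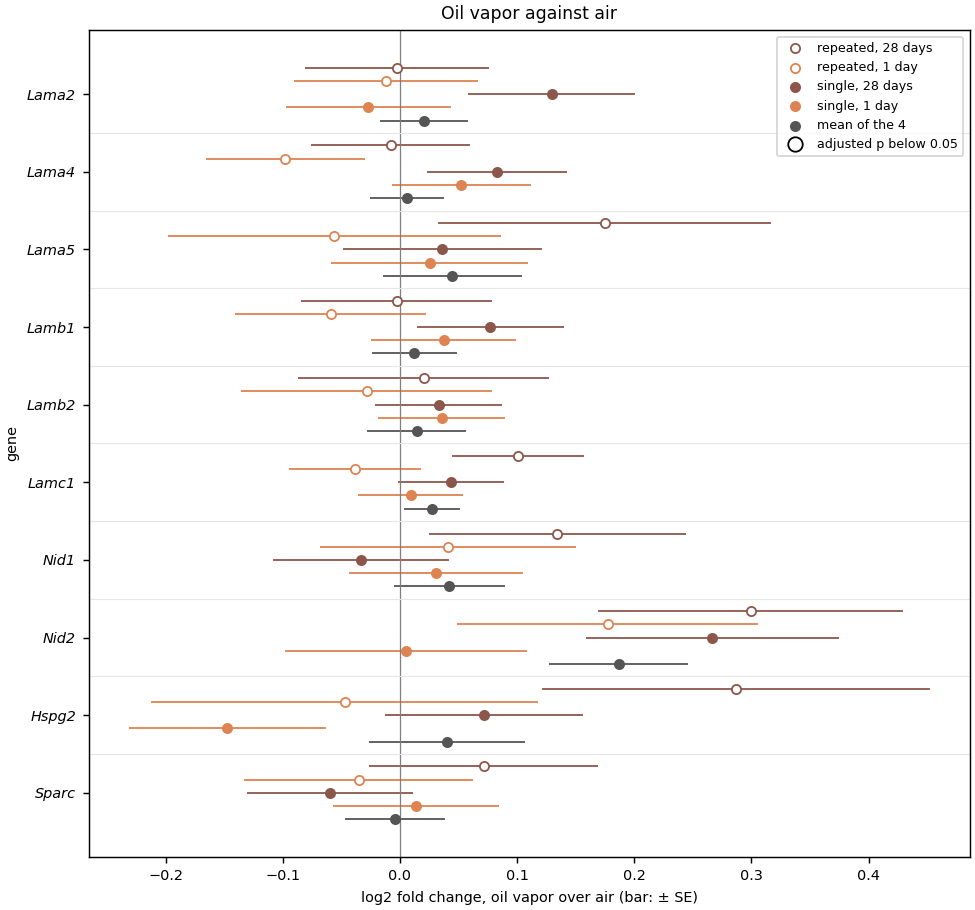
Log2 fold change of oil vapor over air for each member, with its standard error as the bar, in the 4 settings of schedule and time and averaged over them. No point carries the ring for an adjusted p below 0.05, and the averages lie between -0.00 and 0.19.

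Other genes of the same structure were taken from fixed lists, chosen by name and with earlier results of these data known. Of 8 collagens of basement membranes, 4 fell at 28 days in single oil vapor and 5 in single air, with a median log2 fold change of -0.21 in oil vapor and -0.45 in air. The ubiquitous type IV chains were among them, Col4a1 at -0.56 ± 0.09 in oil vapor and -0.56 ± 0.09 in air, and Col4a2 at -0.56 ± 0.09 in oil vapor and -0.48 ± 0.09 in air. Col4a5, a chain of more restricted networks, changed by -0.49 ± 0.07 in oil vapor and -0.50 ± 0.07 in air, and its neighbour gene Col4a6 by -0.30 ± 0.08 in oil vapor and -0.38 ± 0.08 in air. In the contrast between schedules 3 of the 8 passed, all higher in the repeated one: Col4a2 at 0.46, Col4a1 at 0.42 and Col4a5 at 0.38.

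Of the 4 other laminin chains that could be tested, 1 fell in each treatment, Lamb3 in oil vapor at -0.31 ± 0.10 and Lamc3 in air at -0.77 ± 0.22. Lama3, an alpha chain of epithelial laminins, did not pass, at -0.08 in oil vapor and -0.06 in air. Of 15 other basement membrane genes tested, 6 fell in oil vapor and 2 in air, where 4.98% of all genes in oil vapor and 2.24% in air passed as lower. At an unadjusted p below 0.05 the list held 7 genes in oil vapor and 9 in air. In the test of a difference between the treatments' changes 0 of 14820 genes passed, so a larger fall in oil vapor is not shown. Both of the air calls were shared: Pxdn, the peroxidasin that forms sulfilimine cross-links in type IV collagen, at -0.49 ± 0.05 in oil vapor and -0.37 ± 0.05 in air, and Egflam (pikachurin, a dystroglycan ligand) at -0.67 ± 0.10 in oil vapor and -0.63 ± 0.11 in air. In oil vapor Frem1 also fell, at -0.58 ± 0.10, and so did Fbln2, at -0.51 ± 0.15.

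Of 15 laminin and collagen receptors tested, 1 fell and 2 rose in single oil vapor at 28 days, where 9.43% of all genes passed, and 1 fell in air, where 3.25% did. Itga2, a collagen and laminin receptor subunit, fell in both, at -0.69 ± 0.08 in oil vapor and -0.31 ± 0.09 in air. Itgb4, the integrin beta chain of hemidesmosomes, rose in oil vapor by 0.27 ± 0.07, and the syndecan Sdc4 rose by 0.22 ± 0.06. Dag1, which encodes dystroglycan, gave -0.10 ± 0.05 in oil vapor and -0.07 ± 0.05 in air and did not pass. Of 10 matrix proteases and inhibitors, 2 fell in each treatment, the membrane protease Mmp14 at -0.62 ± 0.08 in oil vapor and -0.60 ± 0.08 in air and its substrate Mmp2, a gelatinase, at -0.25 ± 0.06 in oil vapor and -0.49 ± 0.06 in air. Of 11 genes of collagen folding and cross-linking, 5 fell and 2 rose in oil vapor, and 5 fell in air. Loxl2, a lysyl oxidase that cross-links type IV collagen, changed by -0.9986 ± 0.09 in oil vapor and -0.91 ± 0.10 in air. Loxl1, which acts on elastin, changed by -0.83 ± 0.10 in oil vapor and -0.67 ± 0.10 in air, and the collagen chaperone Serpinh1 by -0.43 ± 0.08 in oil vapor and -0.50 ± 0.09 in air. The 2 that rose were the prolyl hydroxylase subunits P4ha1, at 0.43 ± 0.11, and P4ha2, at 0.38 ± 0.11, named here after their values were seen.

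Other lists moved in the same contrast. Of 12 cell division genes 11 fell in single oil vapor at 28 days and 8 in air, with Mki67 at -1.03 ± 0.11 in oil vapor and -0.83 ± 0.11 in air. Their summed level had a median of 144 CPM at 28 days and 296 CPM at 1 day in oil vapor, and of 156 CPM at 28 days and 285 CPM at 1 day in air. In the repeated schedule the medians were 132 CPM at 28 days and 159 CPM at 1 day in oil vapor, and 149 CPM at 28 days and 183 CPM at 1 day in air. Of 8 fibroblast markers tested, 4 fell and 2 rose in oil vapor and 5 fell and 1 rose in air. Col3a1 changed by -0.97 ± 0.10 in oil vapor and -1.04 ± 0.10 in air and Col1a1 by -0.997 ± 0.16 in oil vapor and -1.54 ± 0.16 in air. Pdgfra, a fibroblast receptor, rose by 0.54 ± 0.09 in oil vapor and 0.39 ± 0.09 in air. The summed fibroblast level ranged over 4042 to 5003 CPM at 28 days and 5808 to 8237 CPM at 1 day in oil vapor, and over 3278 to 4739 CPM at 28 days and 6049 to 8122 CPM at 1 day in air. Of 10 endothelial markers, 1 fell (Emcn) and 1 rose (Tek) in each treatment. Their summed level ranged over 4665 to 5602 CPM at 28 days and 4484 to 5036 CPM at 1 day in oil vapor, and over 4554 to 5540.5 CPM at 28 days and 4656 to 5177 CPM at 1 day in air. The part that dividing cells or fibroblasts had in the members' values was not tested. Transcripts of red cells and of liver also moved. Of 8 erythroid markers 6 fell in single oil vapor at 28 days and 1 in air, and their sum ranged over 1132 to 2604 CPM at 28 days and 2508 to 14011 CPM at 1 day in oil vapor, and over 2280 to 8865 CPM at 28 days and 2975 to 6552 CPM at 1 day in air. Of 6 liver markers tested, 4 fell in oil vapor and 1 rose in air. At an unadjusted p below 0.05 there were 4 in oil vapor, all lower, and 6 in air, all higher. Alb changed by -3.61 in oil vapor and 2.58 in air, and Ttr by -5.35 in oil vapor and 2.71 in air. With erythroid, cardiac and liver scores as covariates, 6 members passed in single oil vapor, with Nid2 and Hspg2 lost and Lama2 gained, and 8 in single air. The share of all genes passing in this fit is not given here. Over the alternatives run, 559 to 1628 genes passed in single oil vapor and 345 to 579 in single air. Of 8 markers of smooth muscle and pericytes 1 fell in each treatment. Of 6 alveolar type 1 markers 3 rose in oil vapor and 0 passed in air, and of 7 airway markers 1 rose in oil vapor and 0 passed in air. At an unadjusted p below 0.05 the type 1 list held 3 genes in oil vapor and 2 in air, and the airway list 3 in each. The 3 airway genes at that level in air were lower at 28 days, with Muc5b at -1.56, against 2.01 in oil vapor. The lists for alveolar type 2, Schwann, mesothelial and cardiac muscle cells and for leukocytes had 0 genes called in either treatment by edgeR. At an unadjusted p below 0.05 these held 3 cardiac genes and 2 alveolar type 2 genes in each treatment, 1 leukocyte gene in oil vapor and 2 in air, and 0 Schwann or mesothelial genes. Markers also moved in the contrast of time between schedules. There the mesothelial genes Upk3b (1.56), Upk1b (1.51), Lrrn4 (1.12) and Msln (0.94) passed as higher and Wt1 did not pass. Of the fibroblast markers Col3a1 (0.63) passed as higher and Dcn (-0.87) and Pdgfra (-0.48) as lower. Their part in the members' values was not tested.

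**Figure D5:**
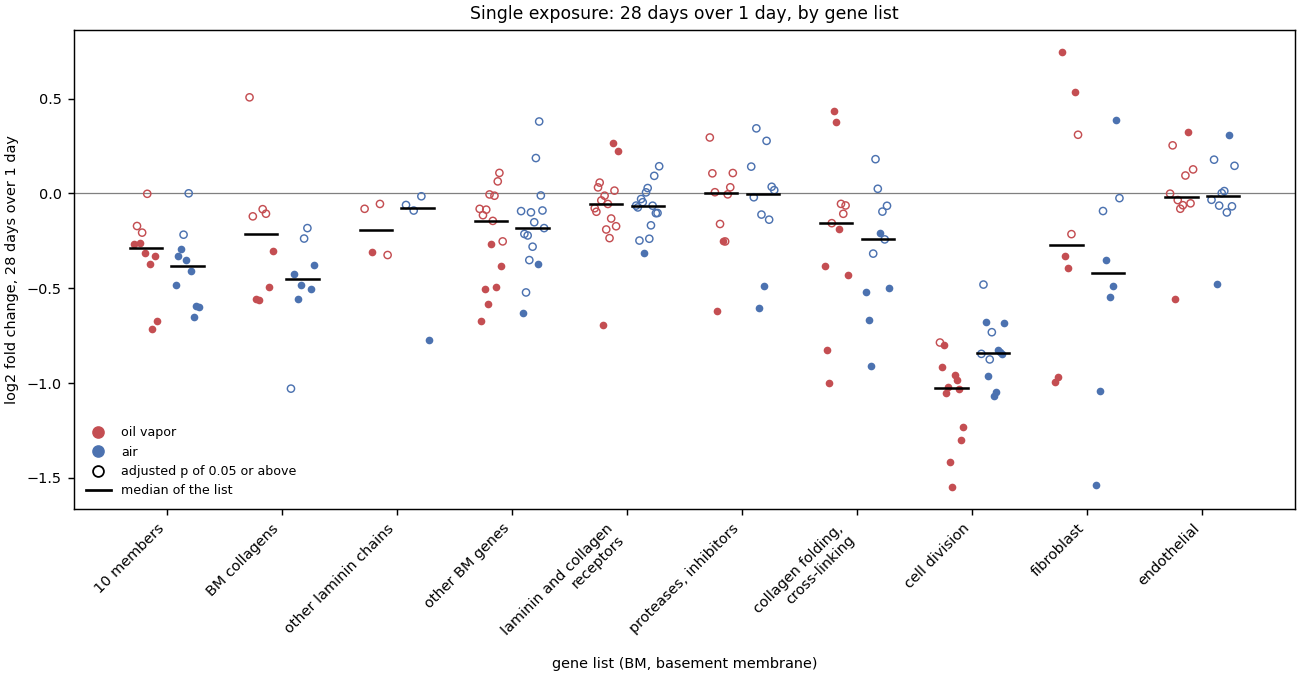
Log2 fold change at 28 days over 1 day after a single exposure for each gene of 10 lists, with oil vapor left of air; filled points passed at an adjusted p below 0.05, open points did not, and the black line is the median of the list. The median of the members, -0.29 in oil vapor and -0.38 in air, lies between that of the cell division genes, -1.03 in oil vapor and -0.84 in air, and that of the endothelial markers, -0.02 in oil vapor and -0.02 in air.

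Which transcripts ran most closely with each member was described by Pearson's r of log2 CPM over the 48 libraries, which share depth, groups and animal 43. Fbn1, which encodes fibrillin 1 of microfibrils, was among the 3 closest genes for 7 of the 10 members: Nid1 (r = 0.95), Lamc1 (0.94), Sparc (0.94), Lamb1 (0.93), Lama4 (0.88), Nid2 (0.79) and Lama2 (0.75). The closest gene to Nid1 was Adamts17 (0.96) and to Sparc was Col3a1 (0.94). Lama5 and Hspg2 had other neighbours, with Notch3, a receptor of mural cells, among the first 3 for Lama5 (0.92) and for Hspg2 (0.91). Lamb2 ran with Npdc1 (0.90), Agpat6 (0.88) and Itga3 (0.87), the integrin alpha chain that binds laminins. Within groups and without animal 43 the values were lower throughout. For Fbn1 they were 0.70 with Lamb1, 0.67 with Lamc1, 0.63 with Nid1, 0.56 with Lama4, 0.53 with Sparc, 0.31 with Nid2 and 0.24 with Lama2. They were 0.58 for Nid1 with Adamts17, 0.73 for Sparc with Col3a1, 0.84 for Lama5 and 0.77 for Hspg2 with Notch3, and 0.61 for Lamb2 with Npdc1, 0.64 with Agpat6 and 0.58 with Itga3. Between members, Lama5 and Hspg2 had the highest r within groups without animal 43 (0.81), and Nid1 and Sparc had 0.66 there.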

How the data were processed

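Total RNA from a piece of lung went into stranded, ribosomal RNA-depleted libraries with 12 PCR cycles, 1 per rat, per the labels' protocols. The deposited values are raw counts of reads, in 1 table for each schedule, so in 2. The tools named are HTSeq 0.6.1, SAMtools 1.8, HISAT2 2.1.0, Trimmomatic 0.35 and bcl2fastq 2.19, with the build Rnor_6.0, per the submitters' processing notes. Neither the gene models nor the strandedness chosen in counting is given in the sources used here, and reads of overlapping or antisense genes cannot be separated, and 0 count columns were left unmapped. For animal 32 the description names the other table, and its title and column were followed.

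The members and lists were chosen with earlier results of these data known. Counts were fitted with edgeR 4.0.16 (R 4.3.3, limma 3.58.1) as group means with TMM scaling and filterByExpr, on 24 libraries within a schedule (14820 genes in the single and 15005 in the repeated one) and on 48 (15322 genes) for the average oil vapor effect and for contrasts between schedules. All 10 members passed the filter. Tests were two-sided quasi-likelihood tests, adjusted over all genes tested by Benjamini-Hochberg, with a threshold of 0.05. Standard errors (SE) are the absolute log2 fold change divided by the square root of F. CPM are counts divided by the library total times 1000000, ratios within a library had exact permutation tests in scipy 1.17.1, and correlations used TMM-scaled log2 CPM with a prior count of 2. Each lung is 1 animal, and floors from counts cover counting error only. Alternatives were RLE size factors, no filter, DESeq2 1.42.0, limma-voom with sample weights, marker covariates, other sets of libraries, a pseudocount of 10 in ratios and leaving out each animal. On simulated counts for the single-schedule air contrast (14736 genes), 30% of genes raised by 1.25-fold and 58% of those raised by 1.5-fold were recovered. Of genes lowered, 88% were recovered at 2-fold and 100% at 4-fold, with 3 false among 141 calls in all. Size and direction were thus not varied separately. Decreases smaller than 2-fold, such as those of the members, were not simulated. All members were named, with up to 4 genes of smallest p in each list described. Of the 3 genes most correlated with each member, at least 1 was named, and not all 3 for most members.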

Additional observations from a re-analysis of the deposited data

Results flagged for a closer look

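In the repeated oil vapor group at 1 day, animal 43 lay further below its 5 group mates than their spread allows by Dixon's criterion, in 8 members. Its levels were 111 CPM for Lama2, 170 CPM for Lama4, 107 CPM for Lama5, 96.3 CPM for Lamb1, 170 CPM for Lamb2, 286 CPM for Lamc1, 141 CPM for Hspg2 and 930 CPM for Sparc. Its group mates averaged 215 ± 12.3 CPM for Lama2, 469 ± 19.9 CPM for Lamc1 and 2165 ± 92 CPM for Sparc (SD, n = 5). Its log2 ratio of Lama5 to Lama4 counts was also the lowest by that criterion, at -0.67. Its erythroid transcripts summed to 42872 CPM, and their part in these values was not tested. The CPM above leave out TMM scaling, in which its factor was 0.714, against 0.952 to 1.04 in the other libraries.

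The other animals that stood apart in their group differed by gene. At 28 days in oil vapor, animal 92 of the repeated schedule was high for Nid1 at 288 CPM. In the single schedule animal 27 was high for Nid1 at 343 CPM and animal 28 for Nid2 at 38.5 CPM. In the single air group at 1 day, animal 2 was low for Nid2 at 28.6 CPM and for Sparc at 2637 CPM. These 14 values came from 104 groups examined, and chance flags about 1 in 20.

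The change between 28 days and 1 day differed between the repeated and the single schedule for Sparc by 0.59, for Nid1 by 0.42 and for Lamc1 by 0.30 on the log2 scale, each past the test of that difference.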

How the results depend on the processing

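In single oil vapor groups 5 to 8 members fell at 28 days, with Nid2 and Hspg2 the calls lost, and in single air groups 8 did under every alternative run. Without animals 5, 17, 43 and 82, a choice made after seeing the data, 6 fell in single oil vapor and 8 in single air. The oil vapor contrasts had 0 members called under every alternative run. Elsewhere the number of members called in repeated air at 28 days over 1 day was 2 with limma-voom and 1 with only the 12 libraries compared. In repeated over single air at 1 day it was 8 with limma-voom, and in the contrast of time between schedules 5 with marker scores as covariates. The cause was not tested. The share of all genes passing in each of these fits is not given, only the range over alternatives below. Leaving out single animals gave 0 to 1 called in repeated oil vapor, the 1 without animal 43. Lamb2 changed sign: in single air at -0.000901 with limma-voom and -0.018 to 0.023 without single animals, and in single oil vapor at 0.0015 with RLE, 3.2e-05 with no filter, 0.00086 with DESeq2 and -0.046 to 0.031 without single animals. Its largest move was in single oil vapor, to -0.13 with marker scores as covariates.

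Without single animals, the log2 ratio of Lama5 to Lama4 in oil vapor over air ran over -0.11 to 0.012 at 28 days in the single schedule, -0.062 to 0.13 at 1 day in the repeated one and -0.067 to 0.021 at 1 day in the single one, and over -0.086 to 0.026 in repeated air between times. That of Lamb2 to Lamb1 in oil vapor over air ran over -0.024 to 0.047 at 28 days in the repeated schedule, -0.014 to 0.065 at 1 day in it and -0.038 to 0.025 at 1 day in the single one. Between times it ran over 0.15 to 0.22 in repeated and 0.28 to 0.36 in single oil vapor. That of Nid2 to Nid1 ran over -0.068 to 0.025 in oil vapor over air at 1 day in the single schedule. Between times it ran over -0.068 to 0.046 in repeated oil vapor, -0.15 to 0.0083 in repeated air, 0.33 to 0.46 in single oil vapor and -0.045 to 0.14 in single air.

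Counts over all genes moved more than those of the members. In place of 6 genes for the average oil vapor effect, alternatives gave up to 413, in place of 0 to 1 in the 4 settings up to 137, and in place of 1 or 0 for its difference between times up to 47. They gave 0 to 430 genes in place of 51 for time in repeated oil vapor, 34 to 244 in place of 49 in repeated air, 559 to 1628 in place of 1398 in single oil vapor, 436 to 1341 in place of 576 between schedules at 1 day, 4 to 47 in place of 7 at 28 days, and 520 to 1680 in place of 697 for time between schedules. No paired analysis was possible because animal numbers are unique across the groups. Depth limits Nid2 most, whose lowest value rests on 22 counts.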

Other observations

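Lama1, the alpha chain of laminins in the early embryo and kidney, was at most 0.720 CPM in any library and was not tested; it was at 0 in all 6 lungs of repeated air at 28 days. Among the members, the median over the 8 groups of the coefficient of variation between animals was smallest for Lamc1, at 5.29%, and Lamb2, at 5.54%, and largest for Nid2, at 12.5%, and Hspg2, at 11.9%. Within groups and without animal 43, the correlations between pairs of members ran between -0.32 and 0.81, with Lama5 and Hspg2 at the top.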
